A study of Mus musculus with 12 samples.

Results

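Myc and 34 genes of ribosome biogenesis were followed in RNA sequencing of the mouse extensor digitorum longus (EDL), a fast hindlimb muscle. They are the 35 rows of the count table, of 55573 gene identifiers in all, whose Ensembl identifiers map to the listed mouse symbols on the GRCm38 annotation. All 35 were found, and all passed the filter on low counts in each comparison. The 12 libraries fell into 4 groups of 3 from C57BL/6 mice, namely single myofibers, myofibers pooled by 5, myofibers pooled by 20, and whole EDL muscle. The labels give no age, sex, treatment or genotype beyond the strain. Every library was made from total RNA with the SMART-Seq HT kit, which copies full-length cDNA from very little RNA. Single myofibers were lysed in the kit's own buffer and whole muscle RNA came from a Trizol extraction, while the labels do not say how RNA of the pools was obtained. Isolation of the fibers and the way RNA was obtained therefore cannot be told apart in single fibers against whole muscle.

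The MYC protein is a transcription factor that binds E-box sequences in DNA together with its partner MAX, and it is known for raising the output of genes that build ribosomes. Ribosomes are assembled mainly in the nucleolus, where RNA polymerase I copies the ribosomal RNA precursor, small nucleolar ribonucleoproteins modify it, and assembly factors cut and fold it into the small and large subunits. In adult skeletal muscle this pathway is known for its response to loading and injury.

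The libraries held 4702823 to 27787120 counted reads, and their scaling factors (TMM, which centres the bulk of the genes) ran from 0.524 in 5-fiber pool 1 to 2.82 in 20-fiber pool 2. Levels are given as CPM, read counts scaled to a common library total with these factors. Reads on 1460 olfactory, vomeronasal and taste receptor genes, which muscle is not known to express, served as the measure of background. Between 78.6% and 97.2% of these genes had a read in the pools of 20, 58.3% and 69.0% in 5-fiber pools 1 and 2, 4.73% to 26.7% in the other 4 fiber libraries and 2.40% to 4.86% in whole muscle. In 20-fiber pool 2, 17 of the 35 members, Myc among them, had no more reads per kilobase of exon than the receptor genes' 99th percentile, so that their reads there cannot be set apart from that background. In 5-fiber pool 2 this held for 1 member, Utp20, and in the other 10 libraries for 0. Whether replicates are separate animals is not stated in the labels, and the p-values cover the spread of these libraries alone.

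Myc (ENSMUSG00000022346, GRCm38 chromosome 15, 61985391 to 61990374, plus strand) stood at 66.6, 3.42 and 58.2 CPM in the 3 single fibers, 45.7, 18.03 and 43.1 CPM in the pools of 5, 4.53, 2.11 and 3.62 CPM in the pools of 20, and 1.46, 2.98 and 5.34 CPM in whole muscle. Single fiber 2 lay within the whole muscle range, and the other 2 single fibers and all pools of 5 lay above every whole muscle library. By edgeR's quasi-likelihood test, with Benjamini-Hochberg adjustment over all genes tested, Myc rose in single fibers (log2 fold change 3.69, SE 1.01, adjusted p = 0.0272). It also rose in the pools of 5 (3.35, SE 0.56, adjusted p = 0.0186). In the pools of 20 the log2 fold change was 0.37 (SE 0.57, adjusted p = 0.632).

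The Myc call in single fibers was also made without single fiber 2 (log2 fold change 4.20, adjusted p = 6.38e-05) and was lost without single fiber 1 or 3 or any 1 whole muscle library (adjusted p = 0.0642 to 0.113). The call in the pools of 5 was lost without 5-fiber pool 1 or any 1 whole muscle library (adjusted p = 0.0654 to 0.132). With library totals in place of TMM factors the log2 fold change of Myc was 2.73 in single fibers (adjusted p = 0.0588) and 2.16 in the pools of 5 (adjusted p = 0.0145), still positive in both. Per kilobase of exon, Myc held rank 7 of the 35 members in single fibers and pools of 5, and rank 32 in pools of 20 and whole muscle.

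Pvt1, a long noncoding RNA gene that neighbours Myc, was at 13.5, 3.68 and 10.7 CPM in single fibers and 0.616, 1.85 and 1.81 CPM in whole muscle (log2 fold change 2.67, SE 0.65, adjusted p = 0.0176). Single fiber 2 was the lowest of the single fibers for this gene as for Myc. The likeness did not extend to the pools of 5, where Myc rose and Pvt1 was at 0.731, 1.28 and 2.95 CPM. In the pools of 20 Pvt1 was at 2.38, 6.26 and 1.83 CPM, and both groups of pools overlapped whole muscle. Of 17 tested genes of the Myc network, 3 rose in single fibers (Pvt1, Mnt and Mga) and 3 fell (Mycn, Mxd3 and Mxd4). Over all 14028 genes tested 13.9% rose and 19.8% fell, so that the share called was near that of all genes. Mycn, a paralog of Myc, had 0 reads in the 3 single fibers and 102 in whole muscle, at least 18.6-fold lower when set against a floor of 3 counts over the single-fiber group. Mxd3, a MAX partner that opposes MYC, had 0 reads in single fibers and 93 in whole muscle, at least 17.0-fold lower on the same floor.

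**Figure D1:**
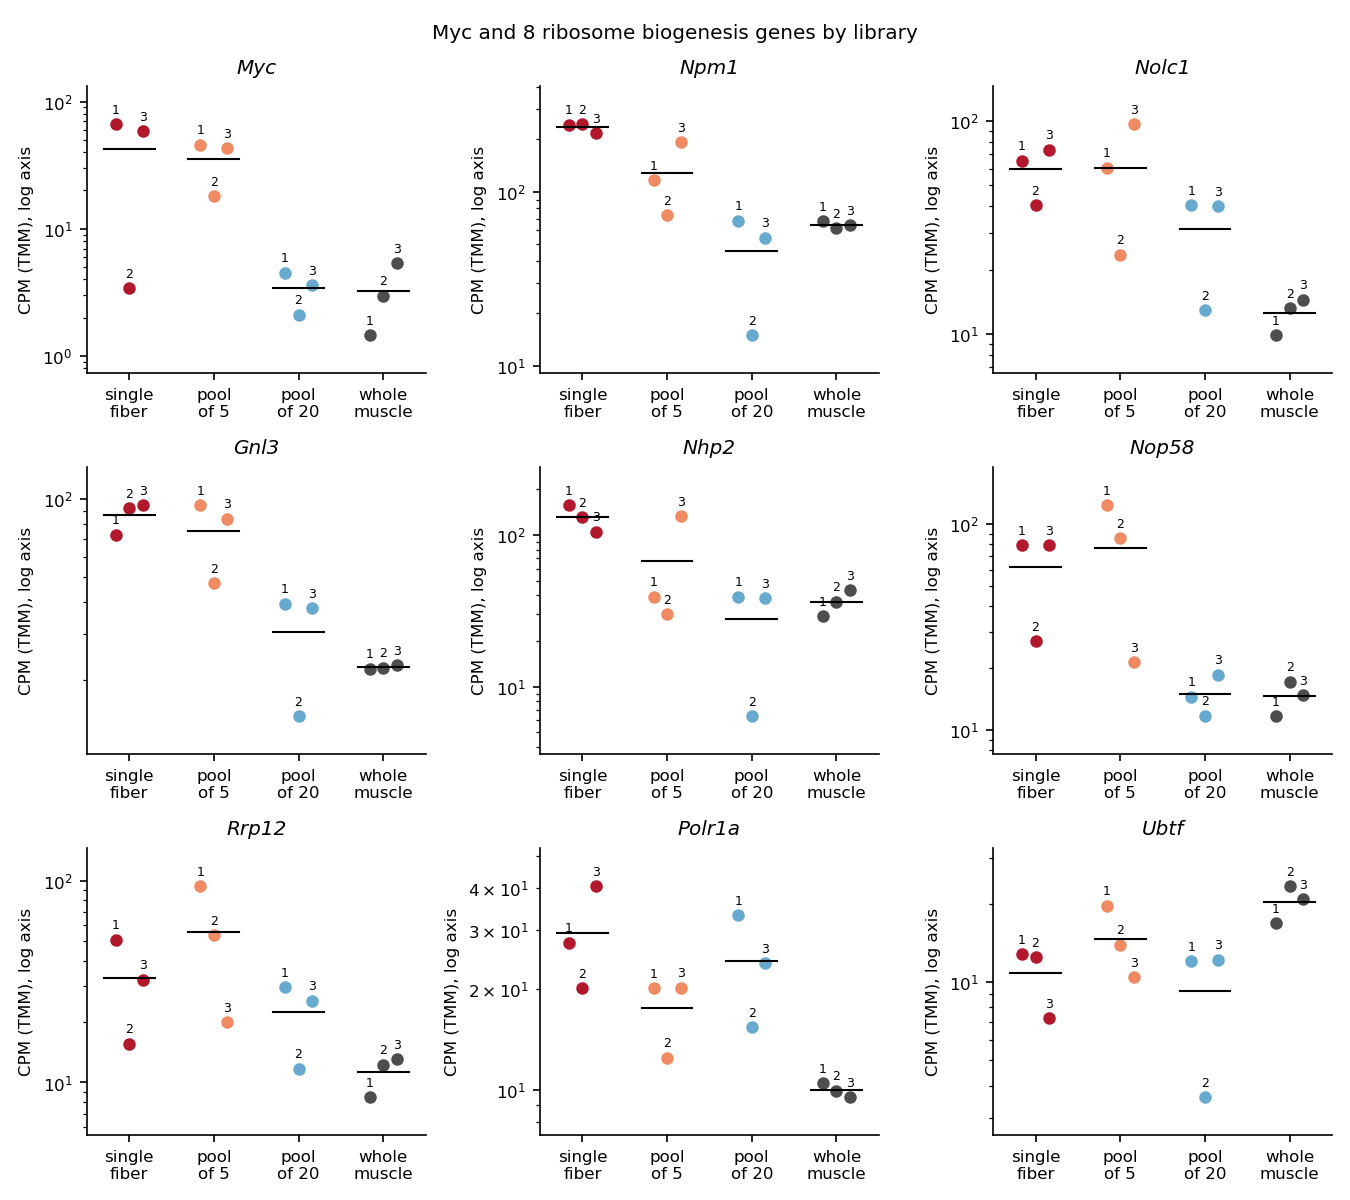
CPM (TMM-scaled, log axes) of Myc and 8 ribosome biogenesis genes in each library; points are libraries, numbered by replicate, and lines are group means. For Myc, single fibers 1 and 3 and the pools of 5 sit at 18.03 to 66.6 CPM, above whole muscle at 1.46 to 5.34 CPM, while single fiber 2 and the pools of 20 sit beside whole muscle.

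Promoter sequence from RefSeq (GRCm38.p6, 250 bases before to 50 after the annotated start) matched 29 of the 35 members. The E-box CACGTG, which reads the same on both strands, was found in 7 of the 29 (24.1%), against 2187 of 27025 genes with a promoter entry (8.09%). The members that hold it are Nop2, Ltv1, Utp20, Pes1, Mybbp1a, Rrn3 and Wdr43. The windows of the members that both hold an E-box and rose in single fibers are printed here, with those of Rrn3, which holds a pair. Each runs 5′ to 3′ on the gene's strand, with the E-box in capitals.
Ltv1: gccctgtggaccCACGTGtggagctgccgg
Utp20: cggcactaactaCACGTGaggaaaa
Wdr43: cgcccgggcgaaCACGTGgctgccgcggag
Rrn3, distal: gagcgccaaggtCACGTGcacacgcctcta
Rrn3, proximal: ttacgctctgctCACGTGggccgcgtcccg
They lie at chr10:13193092-13193121 on the minus strand, chr10:88826765-88826789 on the minus strand, chr17:71616220-71616249 on the plus strand, and chr16:13780472-13780501 and chr16:13780639-13780668 on the plus strand. Of the 7 members with an E-box, 3 rose in single fibers, against 13 of the 29 with a promoter entry. A match is a description of these letters and shows no binding.

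Across all 35 members, 16 rose and 1 fell in single fibers against whole muscle, where 13.9% of the 14028 genes tested rose and 19.8% fell. Their median log2 fold change was 1.01, against -0.12 over all genes tested. In 19 members every single fiber lay above every whole muscle library (21.2% of all genes tested) and in 1 every single fiber lay below (30.9%). These directions depend on the scale. With library totals the members' median was -0.03 and that of all genes -1.20, and 4 members rose and 7 fell, where 3.17% of all genes rose and 46.2% fell. Each of the 17 log2 fold changes called with TMM was lower by 0.96 to 1.10 on that scale. The gap between both medians was 1.13 with TMM and 1.17 with library totals. Nhp2, Npm1, Nolc1 and Gnl3 rose on both scales, by RLE and upper-quartile factors too, and Ubtf fell on all 4. Of the 17 calls made with TMM, only these 5 passed with library totals. Those 4 risen genes also kept their calls without any 1 of the 6 libraries, while the other 13 calls were each lost without 1 library or more, in each case whole muscle 1 and 2 among them (adjusted p = 0.0505 to 0.157). In all, 4 or 5 members rose and 0 fell with 1 whole muscle library left out. In those fits 2.65% to 3.41% of all genes rose and 7.68% to 8.43% fell. Without single fiber 3, 11 members rose and 0 fell, where 11.3% of all genes rose and 17.8% fell.

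**Figure D2:**
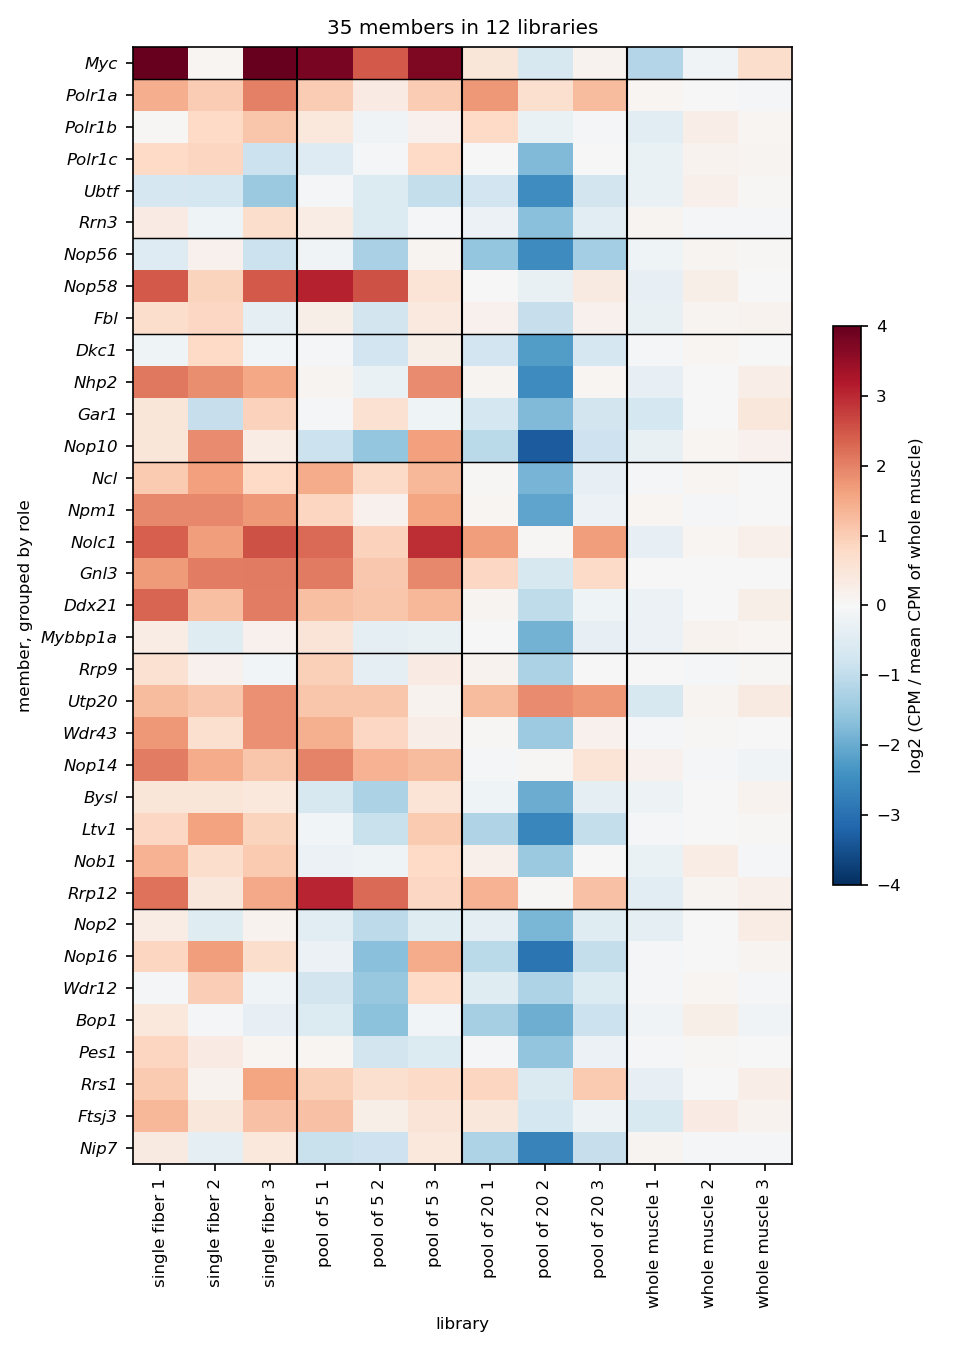
Log2 ratio of CPM to the whole muscle mean for the 35 members (rows, grouped by role) in the 12 libraries (columns); red is higher and blue is lower than whole muscle. Myc, Nolc1 and Gnl3 are red in most fiber libraries and 20-fiber pool 2, in which 17 members lie within the receptor background, is the bluest column; with library totals the members' median log2 fold change in single fibers was -0.03 in place of 1.01.

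Genes of RNA polymerase I transcription moved apart from each other. Polr1a, the largest subunit of the polymerase, stood at 27.5, 20.1 and 40.7 CPM in single fibers, 20.1, 12.4 and 20.2 CPM in the pools of 5, 33.3, 15.4 and 23.9 CPM in the pools of 20, and 10.5, 9.94 and 9.502 CPM in whole muscle. All 9 fiber libraries lay above all whole muscle libraries, though in 20-fiber pool 2 Polr1a lay within the receptor background. Polr1a rose by 1.55 on the log2 scale in single fibers (SE 0.36, edgeR adjusted p = 0.0151) and 1.60 in the pools of 20 (SE 0.35, adjusted p = 0.00154). In the pools of 5 the log2 fold change was 0.74 (adjusted p = 0.155).

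Ubtf, the factor that opens ribosomal DNA to the polymerase, went the other way, at 12.8, 12.5 and 7.26 CPM in single fibers, 19.6, 13.9 and 10.4 CPM in the pools of 5, 12.001, 3.62 and 12.2 CPM in the pools of 20, and 16.8, 23.4 and 20.8 CPM in whole muscle. No single fiber reached the lowest whole muscle library. The log2 fold change of Ubtf was -0.96 in single fibers (SE 0.29, adjusted p = 0.0372), and the call was lost without single fiber 3 or any 1 whole muscle library (up to adjusted p = 0.153). Rrn3, which brings the polymerase to its promoter, was at 28.4, 20.2 and 37.3 CPM in single fibers, 28.2, 15.5 and 21.4 CPM in the pools of 5, 19.2, 7.16 and 17.2 CPM in the pools of 20, and 24.6, 21.5 and 22.2 CPM in whole muscle. Its single fibers and whole muscle libraries overlapped (log2 fold change 0.31, adjusted p = 0.501). The subunits Polr1b and Polr1c had log2 fold changes of 0.70 and 0.38 in single fibers (adjusted p = 0.220 and 0.526).

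The 3 core proteins of box C/D particles, which guide methylation of ribosomal RNA, held 1 call in single fibers (13.9% of all genes tested rose). Nop58 stood at 79.0, 27.0 and 79.1 CPM in single fibers, 124, 85.4 and 21.4 CPM in the pools of 5, 14.5, 11.8 and 18.6 CPM in the pools of 20, and 11.7, 17.2 and 14.8 CPM in whole muscle. It rose in single fibers by 2.07 on the log2 scale (SE 0.46, adjusted p = 0.0129), which did not pass when any 1 whole muscle library was left out (up to adjusted p = 0.0717). In the pools of 5 the log2 fold change of Nop58 was 2.35 (SE 0.61, adjusted p = 0.0547). Its partner Nop56 had log2 fold changes of -0.41 in single fibers (adjusted p = 0.304) and -0.41 in the pools of 5 (adjusted p = 0.513), and fell in the pools of 20 by 1.41 on the log2 scale (SE 0.33, adjusted p = 0.00294). The methyltransferase Fbl had log2 fold changes of 0.41, -0.04 and 0.20 in single fibers, pools of 5 and pools of 20, none past the threshold.

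A ratio of reads within a library needs no scaling factor. The ratio of Nop58 to Nop56 reads, a pair chosen after their values were seen, was 4.71, 1.00 and 5.95 in single fibers, 5.65, 8.63 and 0.824 in pools of 5, 1.75, 2.79 and 1.97 in pools of 20, against 0.541, 0.661 and 0.597 in whole muscle. All 9 fiber libraries lay above all 3 whole muscle libraries, with single fiber 2 and 5-fiber pool 3 the lowest of the 9. Of the 50-base windows in the longest Nop56 transcript, 20.0% also occur in transcripts of other genes, and 8.0% of its exonic bases overlap annotated small nucleolar RNAs. For Nop58 these shares are 1.6% and 0.8%. In 20-fiber pool 2 both genes lie within the receptor background. Nop58 has 10758 exonic bases and Nop56 4099, so background reads spread by length would fall more on Nop58. In single fibers and pools of 5, the receptor genes' mean reads per kilobase were 0.057% to 1.83% of those of Nop58. For Nop56 they were 0.030% to 6.01%. The part of the background in the ratio was not tested.

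**Figure D3:**
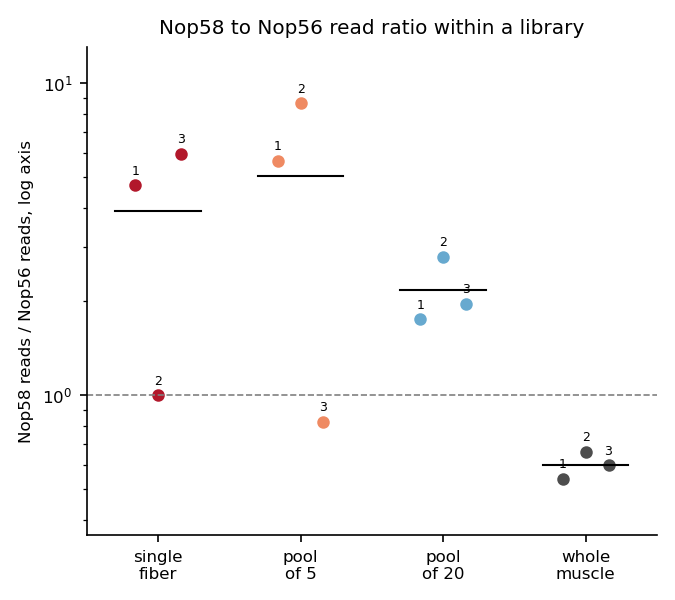
Ratio of Nop58 to Nop56 reads in each library (log axis); points are libraries, numbered by replicate, lines are group means and the dashed line marks equal reads. Whole muscle sits at 0.541 to 0.661 and every fiber library above it, from 0.824 to 8.63.

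In box H/ACA particles, which guide pseudouridylation, 1 of the 4 core proteins passed the test in single fibers (13.9% of all genes tested rose). Nhp2 stood at 158, 131 and 105 CPM in single fibers, 39.2, 30.0 and 133 CPM in the pools of 5, 39.3, 6.41 and 38.4 CPM in the pools of 20, and 29.1, 36.3 and 43.4 CPM in whole muscle. It rose in single fibers by 1.80 on the log2 scale (SE 0.26, adjusted p = 0.00299), while among the pools only 5-fiber pool 3 lay clear of whole muscle on the high side. Nop10, the smallest of the 4 core proteins and the member with the highest level per kilobase in all 4 groups, was at 129, 342 and 112 CPM in single fibers, 50.9, 31.6 and 283 CPM in the pools of 5, 43.7, 9.12 and 51.3 CPM in the pools of 20, and 74.6, 97.4 and 103 CPM in whole muscle. Its single fibers lay above whole muscle but did not pass (log2 fold change 1.01, SE 0.41, adjusted p = 0.0934). The pseudouridine synthase Dkc1 had a log2 fold change of 0.19 (adjusted p = 0.651), and Gar1 had 0.34 (adjusted p = 0.685).

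Among the abundant nucleolar proteins, 5 of 6 rose in single fibers, where 13.9% of all genes tested rose. Npm1 (nucleophosmin, a nucleolar scaffold and chaperone) stood at 242, 245 and 216 CPM in single fibers, 117, 72.9 and 192 CPM in the pools of 5, 67.9, 15.002 and 54.3 CPM in the pools of 20, and 67.4, 61.5 and 63.9 CPM in whole muscle. The single fibers lay close together and 3.52-fold above whole muscle (log2 fold change 1.82, SE 0.22, adjusted p = 0.00176), and 1.68-fold above it with library totals (0.75, adjusted p = 0.0336). Of the Npm1 transcript's 50-base windows 40.9% occur in transcripts of other genes, so its reads are uncertain to the extent that counting shared them out.

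Nolc1, a chaperone of small nucleolar ribonucleoproteins, was at 65.4, 40.4 and 73.4 CPM in single fibers, 60.6, 23.6 and 97.1 CPM in the pools of 5, 40.4, 13.0 and 40.0 CPM in the pools of 20, and 9.93, 13.3 and 14.5 CPM in whole muscle. Only 20-fiber pool 2 of the fiber libraries fell within the whole muscle range. Nolc1 rose in single fibers, pools of 5 and pools of 20 by log2 fold changes of 2.23 (SE 0.34, adjusted p = 0.00381), 2.17 (SE 0.49, adjusted p = 0.0377) and 1.59 (SE 0.41, adjusted p = 0.00538). The call was lost in the pools of 5 without 5-fiber pool 1 or any 1 whole muscle library (up to adjusted p = 0.203), and in the pools of 20 without whole muscle 1 (adjusted p = 0.0783).

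Gnl3 (nucleostemin, a nucleolar GTPase) was at 72.9, 92.2 and 94.7 CPM in single fibers, 95.1, 47.4 and 84.0 CPM in the pools of 5, 39.4, 14.5 and 37.9 CPM in the pools of 20, and 22.1, 22.3 and 22.8 CPM in whole muscle. All single fibers and pools of 5 lay above whole muscle, and Gnl3 rose by 1.91 on the log2 scale in single fibers (SE 0.25, adjusted p = 0.00217) and 1.67 in the pools of 5 (SE 0.33, adjusted p = 0.0269). Its call in the pools of 5 was lost without 5-fiber pool 1 or any 1 whole muscle library (up to adjusted p = 0.201). The RNA helicase Ddx21 rose in single fibers by 1.90 (adjusted p = 0.00766) and in the pools of 5 by 1.16 (adjusted p = 0.0416, and -0.012 with library totals). Nucleolin, encoded by Ncl, rose in single fibers by 1.15 (adjusted p = 0.0125, and 0.054 with library totals). Mybbp1a had a log2 fold change of 0.01 (adjusted p = 0.984).

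Of 8 small subunit assembly genes, 6 rose in single fibers, where 13.9% of all genes tested rose. Wdr43, a part of the early processing complex, stood at 74.9, 34.8 and 80.7 CPM in single fibers, 60.3, 39.6 and 27.0 CPM in the pools of 5, 23.1, 8.14 and 25.2 CPM in the pools of 20, and 21.6, 23.3 and 22.6 CPM in whole muscle. All single fibers and pools of 5 lay above whole muscle, and the log2 fold change was 1.48 in single fibers (SE 0.38, adjusted p = 0.0206) and 0.85 in the pools of 5 (adjusted p = 0.175). Rrp12, which takes part in late maturation and export of the small subunit in yeast, was at 50.9, 15.6 and 32.3 CPM in single fibers, 94.0, 53.6 and 19.8 CPM in the pools of 5, 29.7, 11.7 and 25.4 CPM in the pools of 20, and 8.47, 12.2 and 13.1 CPM in whole muscle. It rose in all 3 comparisons, by log2 fold changes of 1.52 (adjusted p = 0.0350), 2.25 (adjusted p = 0.0484) and 1.28 (adjusted p = 0.00953). The lowest libraries were again single fiber 2 and 5-fiber pool 3 in their groups.

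Nop14, an early assembly factor, was at 28.5, 19.4 and 14.7 CPM in single fibers, 27.3, 18.2 and 16.4 CPM in the pools of 5, 6.68, 7.09 and 10.1 CPM in the pools of 20, and 7.70, 6.71 and 6.25 CPM in whole muscle. It rose in single fibers by 1.54 (adjusted p = 0.0106) and in the pools of 5 by 1.52 (adjusted p = 0.0319), with no overlap with whole muscle in either. Utp20 rose by 1.40 in single fibers (adjusted p = 0.0397) and by 2.02 in the pools of 20 (adjusted p = 5.61e-04), where 1 of the 3 libraries held it within the receptor background. The cytoplasmic factor Ltv1 rose by 1.10 in single fibers (adjusted p = 0.0180, and 0.011 with library totals). It fell by 1.13 on the log2 scale in the pools of 20 (adjusted p = 0.0161). Nob1, the endonuclease that trims the precursor of 18S RNA, rose by 1.03 in single fibers (adjusted p = 0.0293, and -0.013 with library totals), and Rrp9 and Bysl had log2 fold changes of 0.20 and 0.43 that did not pass.

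Large subunit assembly genes held 1 call among 8 in single fibers, where 13.9% of all genes tested rose. Their share called was near that of all genes. Nop16 stood at 41.5, 73.3 and 37.3 CPM in single fibers, 19.6, 7.18 and 64.4 CPM in the pools of 5, 10.9, 3.02 and 12.03 CPM in the pools of 20, and 21.8, 22.6 and 24.8 CPM in whole muscle. It rose in single fibers by 1.07 (adjusted p = 0.0253, and -0.029 with library totals) and fell by 1.13 on the log2 scale in the pools of 20 (adjusted p = 0.0265). Wdr12, Bop1 and Pes1, which form a complex needed for large subunit RNA processing, had log2 fold changes of 0.29, 0.01 and 0.41 in single fibers, none past the threshold. Wdr12 was at 28.9, 59.9 and 27.6 CPM in single fibers, 18.1, 10.7 and 52.4 CPM in the pools of 5, 21.7, 13.0 and 20.6 CPM in the pools of 20, and 29.3, 32.0 and 29.6 CPM in whole muscle. Single fiber 2 and 5-fiber pool 3 were the highest libraries for Wdr12. The other 4 of this class, Rrs1, Ftsj3, Nip7 and Nop2, ran from -0.02 to 1.03, and none passed.

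**Figure D4:**
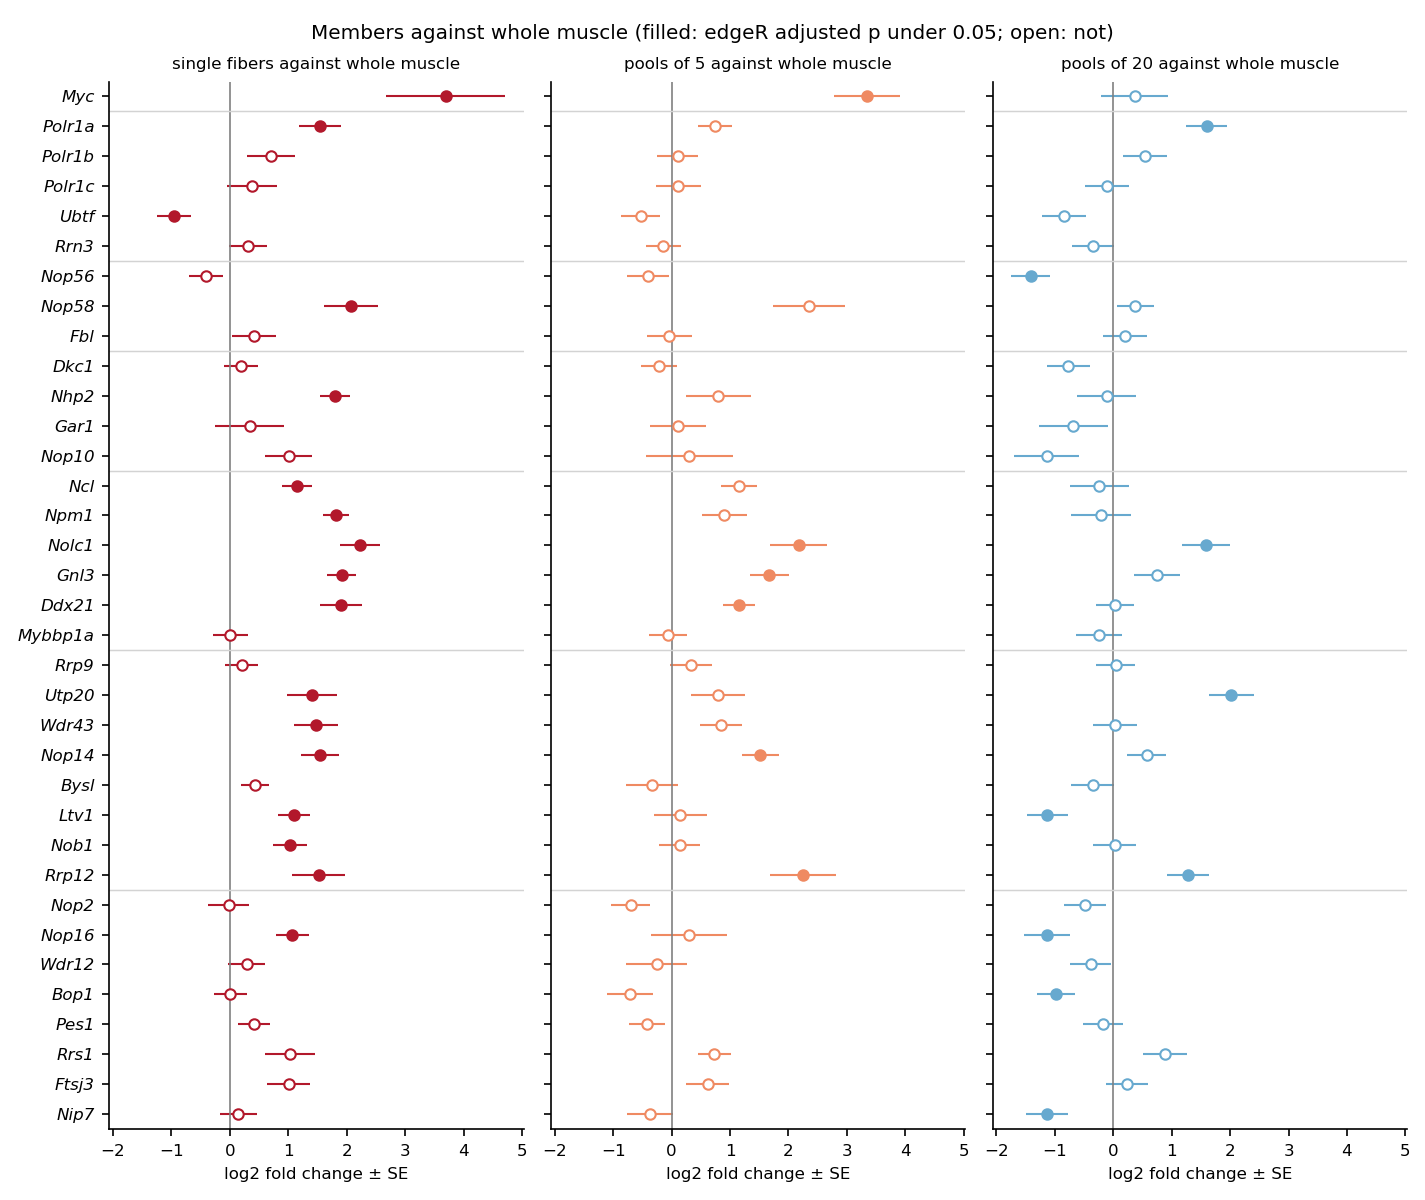
Log2 fold change ± SE of the 35 members against whole muscle in single fibers, pools of 5 and pools of 20, from edgeR fits on the 6 libraries of each pair; filled points have adjusted p under 0.05. Filled points number 16 above and 1 below 0 in single fibers, 6 above and none below in pools of 5, and 4 above and 5 below in pools of 20; with library totals these are 4 above and 7 below, 1 above and 12 below, and 4 above and 8 below.

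In the pools of 5, 6 members rose and 0 fell (Myc, Nolc1, Gnl3, Ddx21, Nop14 and Rrp12), where 4.63% of the 14764 genes tested rose and 4.22% fell. These pools were unlike one another, with 38.3% and 34.2% of reads on mitochondrial ribosomal RNA in 5-fiber pools 1 and 2 and 2.39% in pool 3, against 2.34% to 2.76% in whole muscle, and the part of this in the calls was not tested. In 12 members all pools of 5 lay above whole muscle (16% of all genes tested) and in 1 below (20.2%). With library totals 1 rose, Myc, and 12 fell, where 1.96% of all genes rose and 36.5% fell and their median moved to -1.20. Each of the 6 calls was lost without 5-fiber pool 1 or any 1 whole muscle library, when 0 members were called. Without 5-fiber pool 3, 12 rose and 5 fell, where 25.2% of all genes rose and 23.1% fell, so that the share called was near that of all genes. In the pools of 20, 4 members rose (Polr1a, Nolc1, Utp20 and Rrp12) and 5 fell (Nop56, Ltv1, Nop16, Bop1 and Nip7), where 30.3% of the 16969 genes tested rose and 13.5% fell. In 2 members all pools of 20 lay above whole muscle (28.9% of all genes tested) and in 12 below (30.2%). These 9 calls held under RLE and upper-quartile factors and library totals. Polr1a, Nop56 and Utp20 kept theirs without any 1 library. The 6 others were lost without whole muscle 1, 2 or 3 or 20-fiber pool 1 (adjusted p = 0.0646 to 0.184). Without a filter on low counts 0 members rose and 6 fell, where 40% of all genes rose and 6.5% fell. With whole muscle 2 or 3 left out 1 member fell (7.46% or 7.75% of all genes), and without 20-fiber pool 2, 6 rose and 9 fell, where 34.8% of all genes rose and 23.0% fell.

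The 3 comparisons share the whole muscle libraries. Nolc1 and Rrp12 rose in all 3, though not in the pools of 20 without a filter on low counts, and 15 members passed in none. With the 9 fiber libraries as 1 side, 6 members rose and 0 fell (Myc, Polr1a, Nolc1, Gnl3, Utp20 and Rrp12), where 7.46% of the 22110 genes tested rose and 7.78% fell. In 1 member, Polr1a, all fiber libraries lay above whole muscle (3.22% of all genes tested), and in 0 below (7.72%). In 20-fiber pool 2 the reads of Polr1a lay within the receptor background. Nolc1 had the log2 fold change 1.94 (SE 0.52, adjusted p = 0.0209) and Myc 2.39 (SE 0.70, adjusted p = 0.0295). Each of the 6 calls was lost without 1 library or more (adjusted p = 0.0513 to 0.352), with 0 members called without 20-fiber pool 1, whole muscle 1 or whole muscle 2. With library totals 1 member rose, Nolc1, and 9 fell, where 3.01% of all genes rose and 21% fell. Leaving out the 5 libraries with reads on over 50% of the receptor genes, a choice made after seeing the data, removes every pool of 20 and 5-fiber pools 1 and 2. In the contrast that is left, of the single fibers and 5-fiber pool 3 with whole muscle, that 1 pool weighs as much as the 3 single fibers together. The members' median log2 fold change was 0.62 there and that of all genes -0.25.

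Among fiber groups, 9 members were higher in single fibers than in pools of 20 and 0 lower, where 8.52% of the 16978 genes tested were higher and 27.5% lower. In 21 members all single fibers lay above all pools of 20 (21.1% of all genes tested) and in 0 below (34%). The 9 called were Myc, Nop58, Nhp2, Nop10, Npm1, Ddx21, Wdr43, Ltv1 and Nop16. The largest was Myc, at 3.28 on the log2 scale (SE 0.79, adjusted p = 0.00743, and 0.0672 without 20-fiber pool 2). The members' median was 0.91 and that of all genes -0.74, against 0.03 and -1.62 with library totals, when 6 were higher and 0 lower (2.58% and 36.0% of all genes). Ddx21, Ltv1 and Nop16 kept their calls without any 1 library, and the 6 others were each lost without a single fiber or 20-fiber pool 2 (adjusted p = 0.0524 to 0.122). The pools of 20 were also the libraries with the most reads on receptor genes. Markers of other cells moved here too, with 5 of 5 endothelial, 4 of 5 pericyte and smooth muscle, 4 of 5 erythroid, 3 of 5 satellite cell and 3 of 5 proliferation markers lower in single fibers than in pools of 20. Of 4 macrophage markers tested 1 was lower and 1 higher, 1 proliferation marker was higher, and 0 of 5 fibroblast and 0 of 5 muscle fiber markers passed. The summed endothelial level was 0.387 to 0.886 CPM in single fibers and 35.5 to 373 CPM in the pools of 20. The part of the receptor background and of other cells in the difference was not tested.

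Between single fibers and pools of 5, edgeR called 0 members, where 0.0157% of the 12700 genes tested were called. DESeq2 also called 0, where it called 0.166% of all genes higher and 4.32% lower, and 0 members had an unadjusted p under 0.05. Log2 fold changes ran from -0.83 to 1.01, and only for Npm1 did all single fibers lie above all pools of 5 (3.72% of all genes tested, with 9.03% below). Without single fiber 2 and 5-fiber pool 3, left out after seeing the data, 7 members were higher and 0 lower, and of all genes 10.0% were higher and 13.9% lower. Between pools of 5 and pools of 20 edgeR called 0 members of 35 and 0% of 17113 genes. DESeq2 called 1 member higher and 0 lower, where 0.123% of all genes were higher and 0.239% lower. By edgeR 8 members had an unadjusted p under 0.05, a share that was not counted over all genes. Myc had the largest log2 fold change of the members by edgeR, 3.28 (SE 0.56, adjusted p = 0.372). It was 1 of 12 members with all pools of 5 above all pools of 20 (7.84% of all genes tested), with 1 member below (12.3%).

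Summed over the 34 biogenesis genes, the level was 1643, 1748 and 1489 CPM in single fibers, 1289, 797 and 1587 CPM in the pools of 5, 715, 259 and 670 CPM in the pools of 20, and 666, 768 and 771 CPM in whole muscle. On this scale all single fibers and pools of 5 lay above whole muscle. With plain library totals in place of scaled ones, the same sum was 1042, 975 and 1325 in single fibers, 676, 592 and 981 in pools of 5, 741, 730 and 928 in pools of 20, against 1070, 1093 and 1099 in whole muscle. On that scale only single fiber 3 lay above whole muscle, and the pools lay below it.

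**Figure D5:**
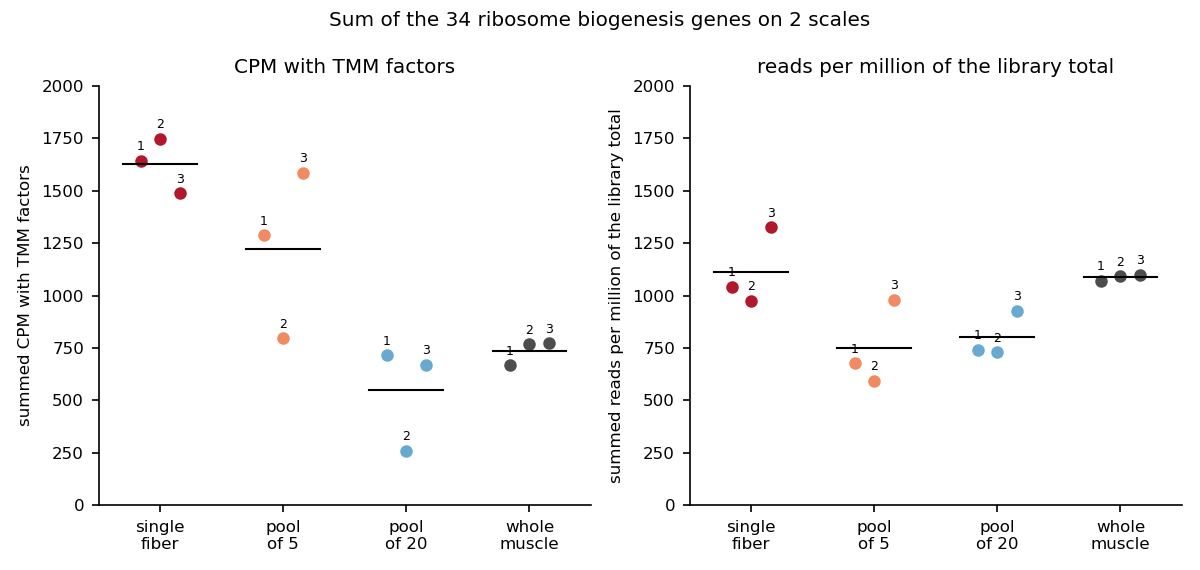
Summed level of the 34 biogenesis genes in each library, as TMM-scaled CPM (left) and on plain library totals (right); points are libraries, numbered by replicate, and lines are group means. Single fibers sit at 1489 to 1748 on the left, above whole muscle at 666 to 771, and at 975 to 1325 on the right, around whole muscle at 1070 to 1099.

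The rest of the pathway was read from lists that hold none of the 35 members. In single fibers against whole muscle 13.9% of the 14028 genes tested rose and 19.8% fell. There 5 of 17 other polymerase I genes rose and 0 fell, among them Taf1d (log2 fold change 2.00), Polr2f (1.49) and Polr1d (1.41). Of 45 other small subunit genes 5 rose and 1 fell, with Utp14a at 2.13, Heatr1 at 1.35 and Utp18 at -1.26. Of 46 other large subunit genes 12 rose and 0 fell, with Rrp15 at 2.84, Mdn1 at 2.19 and Nol8 at 1.88. Of 13 tested genes of the RNA exosome, which trims ribosomal RNA ends, 3 rose and 0 fell (Dis3 at 1.35, Exosc4 at 0.88 and Exosc1 at 0.84). Medians were 0.58, 0.31, 0.47 and 0.18 for these 4 lists, against -0.12 over all genes. With library totals the median over all genes was -1.20, and the lists were not read on that scale. Of 64 cytosolic ribosomal protein genes 62 rose and 0 fell, with a median of 2.11 and the largest changes in Rps28 (3.09), Rpl36 (2.91) and Rps27 (2.79). In the pools of 20, where 30.3% of all genes rose and 13.5% fell, 0 of 13 exosome genes rose and 7 fell, 2 of 45 other small subunit genes rose and 13 fell, and 5 of 46 other large subunit genes rose and 9 fell. There 2 of 17 other polymerase I genes rose and 2 fell, and 4 of 17 Myc network genes rose and 3 fell. Of 64 cytosolic ribosomal protein genes 11 rose and 0 fell, with a median of 0.83. In the pools of 5, where 4.63% of all genes rose and 4.22% fell, 29 of those 64 rose and 0 fell. Of the other polymerase I, small subunit, large subunit and exosome genes 1, 1, 1 and 0 rose there and 0 fell.

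Markers of other cells moved in the same comparison. In single fibers 5 of 5 endothelial, 5 of 5 fibroblast and 5 of 5 erythroid markers were lower than in whole muscle, 4 of 5 pericyte and smooth muscle, 3 of 5 macrophage and 2 of 5 satellite cell markers too, and 4 of 5 muscle fiber markers were higher. The summed endothelial level was 0.387 to 0.886 CPM in single fibers and 727 to 873 CPM in whole muscle, and the fibroblast level was 7.03 to 156 CPM in single fibers and 2613 to 2859 CPM in whole muscle. The erythroid sum was 0.354 to 1.24 CPM in single fibers and 605 to 899 CPM in whole muscle, and the pericyte and smooth muscle sum was 1.42 to 11.1 CPM in single fibers and 284 to 296 CPM in whole muscle. Macrophage markers summed to 1.74 to 268 CPM in single fibers, where C1qa was at 0 and Cd68 was higher, and to 369 to 404 CPM in whole muscle. Satellite cell markers summed to 12.003 to 19.997 CPM in single fibers and 31.3 to 36.2 CPM in whole muscle. Proliferation markers, of which 3 of 5 were lower and Pcna higher, summed to 22.2 to 28.1 CPM in single fibers and 25.6 to 27.1 CPM in whole muscle. The 5 fiber markers, all above 0 in every group, summed to 124750 to 227690 CPM in single fibers, 43437 to 227650 CPM in the pools of 5, 11446 to 73546 CPM in the pools of 20 and 50163 to 67581 CPM in whole muscle. In these bulk samples fewer cells of a type and less RNA per cell cannot be told apart, and the part of the other cell types in the members' changes was not tested.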

How the data were processed

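RNA sequencing covered 12 libraries in 4 groups of 3, grouped by the labels, which name no batch or animal. The deposited values are raw read counts per Ensembl gene, made by the authors with HISAT2, SAMtools and featureCounts on GRCm38 (mm10), per the submitters' processing notes. Versions, strand and multi-mapping settings are not given in the sources used here, so overlapping genes and copies may share reads. Symbols, coordinates and exon lengths came from GENCODE M21 (55480 of 55573 identifiers matched).

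Counts were tested with edgeR 4.0.16 in R 4.3.3 (TMM, filterByExpr, glmQLFit, glmQLFTest, Benjamini-Hochberg adjusted p under 0.05). Each pair of groups was fitted on its 6 libraries, and isolated fibers against whole muscle on all 12 as the mean of the 3 fiber groups. CPM use TMM factors over all 12 libraries, while each fit has its own. SE is the log2 fold change over the root of F. Totals of 4702823 to 27787120 reads per library limit the precision of low genes. No 2 libraries of the same group were near copies.

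Per-library values are given for Myc and, by role, for the most abundant member by mean CPM and for up to 2 called ones that changed most in isolated or single fibers. For each pathway list the 3 called genes with the largest change in single fibers are named. Members and lists were chosen with earlier results of these data known. Alternatives were RLE and upper-quartile factors, no filter, DESeq2 1.42.0, a replicate block, other models, leaving out each library, and, added after seeing the data, library totals and 2 sets of libraries left out. The fits were tested on simulated counts.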

Additional observations from a re-analysis of the deposited data

Results flagged for a closer look

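Single fibers and pools of 20, both isolated from the EDL, differed in 9 members by edgeR's test of the difference itself, always with the higher level in single fibers. The log2 fold changes were 3.28 for Myc, 1.63 for Nop58, 1.94 for Nhp2 and 2.16 for Nop10. They were 2.05 for Npm1, 1.83 for Ddx21, 1.44 for Wdr43, 2.22 for Ltv1 and 2.21 for Nop16. All but Myc had every single fiber above every pool of 20. For Myc, single fiber 2 lay within the range of the pools at 3.42 CPM, against 2.11 to 4.53 CPM in the pools of 20. With the replicate number as a block 0 of the 9 passed, though the numbers do not pair the libraries.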

How the results depend on the processing

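Of 2695 values of single members under an alternative, 2062 kept their direction and side of the threshold, 253 that passed in neither fit changed sign, 239 no longer passed, 128 newly passed and 13 that passed in either fit turned round. Counts of members that rose and fell are followed here, in parentheses, by the shares of all genes that did. For isolated fibers against whole muscle 6 rose and 0 fell (7.46% and 7.78%). It was 1 and 9 with library totals (3.01% and 21%) and 2 and 0 without a filter on low counts (3.86% and 3.86%). DESeq2 gave 11 and 0 (18.2% and 6.44%) and the replicate block 2 and 0 (5.92% and 7.91%). A model of 2 groups gave 0 and 0 (0.977% and 1.72%). Without the 5 libraries of high receptor background, which leaves 1 pool of 5, the members' median was 0.62 and that of all genes -0.25. For single fibers it was 16 and 1 (13.9% and 19.8%), and 4 and 7 with library totals (3.17% and 46.2%). The replicate block gave 10 and 0 (7.33% and 15%) and the fit on all 12 libraries 8 and 0 (4.5% and 8.4%). For pools of 5 it was 6, and 13 with library totals, 1 with the replicate block, 18 without those 5 libraries (which leaves 1 pool, assumed to vary like whole muscle) and 17 without 5-fiber pool 3. Those totals for pools of 5 are in either direction. By direction, 6 rose and 0 fell (4.63% and 4.22%), but 1 rose and 12 fell with library totals (1.96% and 36.5%). The replicate block gave 1 and 0 (0.867% and 0.698%), and leaving out 5-fiber pool 3 gave 12 and 5 (25.2% and 23.1%). With 1 pool left, the members' median was 0.37 and that of all genes -0.29. For pools of 20 it was 4 and 5 (30.3% and 13.5%), and 2 and 3 in the fit on all 12 (25.9% and 7.61%). Without a filter on low counts it was 0 and 6 (40% and 6.5%). Single fibers against pools of 5 gave 0 and 0 (0% and 0.0157%), and 7 and 0 without single fiber 2 and 5-fiber pool 3 (10% and 13.9%). Single fibers against pools of 20 gave 9 and 0 (8.52% and 27.5%), and 4 and 0 without a filter (2.08% and 28.4%). The replicate block gave 0 and 0 there (0% and 0.0412%), and the fit on all 12 gave 17 and 0 (9.98% and 28.7%). Pools of 5 against pools of 20 gave 0 and 0 (0% and 0%), and 1 and 0 with DESeq2 (0.123% and 0.239%). It was also 1 and 0 without 5-fiber pool 2 (0.154% and 0.0446%) or 3 (0.413% and 0.0482%). Leaving out each library in turn gave, in this order of comparisons, 0 to 7, 4 to 20, 0 to 17, 5 to 15, 0 to 1, 5 to 9 and 0 to 1 calls. Those calls are in either direction, and calls over all genes varied too, in single fibers from 1540 of 14842 genes to 7617 of 15246. With library totals 17 of 35 log2 fold changes changed sign in single fibers and 17 in pools of 5. Of those that passed in either fit, the value in single fibers turned to -0.91 for Dkc1, -1.02 for Mybbp1a, -0.88 for Rrp9, -0.013 for Nob1, -0.029 for Nop16, -0.82 for Wdr12 and -1.07 for Bop1, and in pools of 5 to -1.09 for Polr1b and -0.012 for Ddx21. Without the 5 libraries, Ltv1 stood at 0.92 in isolated fibers and Wdr12 at 0.61 in pools of 5. Nop10 in pools of 5 ran from -1.11 without pool 3 to 0.73 without pool 2. The cause of each change was not tested. Libraries with the same number deviated together with correlations of -0.402 to 0.455, so the numbers do not pair the libraries and a call lost under the block says nothing of its size. Depth was lowest in 20-fiber pool 2, where 17 members lie within the receptor background.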

Other observations

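Single fiber 2 and 5-fiber pool 3 stood out from the other libraries of their groups in the same members. Nop58, Rrp12 and the Nop58 to Nop56 ratio were lowest in both. Nop10, Nop16 and Wdr12 were highest in both, with Nop10 at 342 CPM in single fiber 2, against 129 and 112 CPM in single fibers 1 and 3, and at 283 CPM in 5-fiber pool 3, against 50.9 and 31.6 CPM in 5-fiber pools 1 and 2. Myc parted the pair, at 3.42 CPM in single fiber 2 and 43.1 CPM in 5-fiber pool 3. These were also the fiber libraries with the lowest share of receptor genes with a read, 4.86% and 4.73%, and with the lowest share of reads on mitochondrial ribosomal RNA, 3.15% and 2.39%. These libraries were set side by side after their values were seen, and no test was made.

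The level per kilobase of exon spanned a wide range among the members. In whole muscle Nop10 was highest at 82.8 CPM per kilobase, then Nhp2 at 31.6 and Npm1 at 24.1, and Utp20 was lowest at 0.353. Nop10, Nhp2 and Npm1 held ranks 1, 2 and 3 in all 4 groups, and Utp20 rank 35.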
